A study of Mus musculus with 18 samples.

Results

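The 6 genes described here encode molecules through which antigen-presenting cells pass costimulatory or checkpoint signals to T cells: Cd80, Cd86, Icosl, Cd83, Cd274 and Pdcd1lg2. They were chosen by name, as the rows of the count table whose Ensembl ID carries one of these mouse symbols, and the rule uses no measured value. All 6 were found among the 50600 genes of the table, and all 6 were among the 15663 genes that passed the filter on low counts.

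RNA-seq was performed on bone marrow-derived macrophages (BMDMs) of WT and IRF5 KO mice, grown with recombinant GM-CSF for 8 days, to ask how a PYK2 inhibitor changes gene expression after LPS. IRF5 is a transcription factor downstream of Toll-like receptors, PYK2 is a tyrosine kinase encoded by Ptk2b, and defactinib inhibits PYK2 and the related kinase FAK. In each genotype 3 libraries were unstimulated, 3 were pretreated with the DMSO vehicle for 1 h and given LPS at 100 ng/ml for 2 h, and 3 were pretreated with 3.5 µM defactinib for 1 h before the same LPS. The 18 libraries therefore formed 6 groups of 3, labelled as biological replicates, and are named below by genotype and treatment, as in WT LPS DMSO. The unstimulated libraries carry DMSO in their sample labels and an untreated mark in the column names. The study's figure legend describes defactinib or DMSO for 1 h and then LPS for 0 or 2 h, by which they received vehicle. The column names differ from that. How the IRF5-/- allele was made is not given in the sources used here. The study's methods name purchased male C57BL/6 J mice without tying them to these cultures, so the donors' age and sex stay unstated. No group received defactinib without LPS, so every value of the drug below is its effect on LPS-stimulated cells.

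T cells respond fully to antigen when a costimulatory signal accompanies it. CD80 and CD86, the B7 molecules of macrophages and dendritic cells, bind CD28 to costimulate and CTLA-4 to restrain, and their rise after Toll-like receptor stimulation is a common measure of activation. ICOS ligand (Icosl) binds ICOS on activated T cells, while PD-L1 (Cd274) and PD-L2 (Pdcd1lg2) bind PD-1 and hold T cells back. CD83 marks mature dendritic cells and keeps MHC class II and CD86 at the cell surface by opposing the ubiquitin ligase MARCH1.

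Between 39282181 and 61949143 read pairs were counted per library, and the members were counted with 256 (Icosl, WT LPS defactinib) to 62897 (Cd274, WT LPS DMSO) of them. For Icosl in WT LPS defactinib and for a few tight groups, such as Cd80 in IRF5 KO LPS DMSO, the spread between libraries was no wider than counting error. Irf5 does not check the knockout in these counts: summed over its exons it was at 587, 606 and 650 CPM (read pairs counted, relative to the TMM-scaled library size) in WT unstimulated libraries and still at 335, 397 and 364 CPM in IRF5 KO unstimulated libraries, and the deleted part is not given in the sources used here. Across its groups Irf5 ranged from 213 CPM in a WT LPS defactinib library to 650 CPM, and its mean in WT LPS defactinib, 276 ± 90.2 CPM (SD, n = 3), was below that of each IRF5 KO group. The macrophage label was matched by all 8 macrophage markers examined, with a summed level of 9740 to 19200 CPM in every library. Of 10 dendritic cell markers 8 passed the filter, led by Itgax, as GM-CSF cultures can hold both cell types, and the B cell, T cell and NK cell markers were each below 2 CPM in all libraries, with the highest, Cd8a, at 1.74 CPM.

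The library labelled IRF5 KO LPS DMSO replicate 3 stood apart. Over all tested genes its log2 CPM correlated at 0.932 with replicates 1 and 2 of its group whereas these correlated at 0.992 with each other. It correlated at 0.978 to 0.979 with the IRF5 KO unstimulated libraries, at 0.959 to 0.961 with WT unstimulated, at 0.954 to 0.957 with WT LPS DMSO, at 0.941 to 0.943 with IRF5 KO LPS defactinib and at 0.905 to 0.92 with WT LPS defactinib. Among the members it was 2.7 times the mean of replicates 1 and 2 for Icosl, 2.51 times for Cd83, 1.77 times for Pdcd1lg2 and 1.33 times for Cd86, but 0.65 times for Cd274 and 1.01 times for Cd80. Members' changes with LPS and defactinib in IRF5 KO cells are therefore given with and without it. Without it the group rests on replicates 1 and 2, whose counts were unusually close. Their chi-square per gene, which sets spread against counting error, was 2.33, against 441 and 425 for the pairs with replicate 3. It was also low for WT unstimulated replicates 1 and 2 (3.82), while pairs outside replicate 3 reached 183. Whether such close pairs came from separate cultures is not given. WT LPS defactinib replicate 3 also differed from its group, at 0.971 and 0.977, and was the highest of its group for 5 members, with Icosl as the exception.

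LPS raised both CD28 ligands, Cd83 and the PD-L1 gene in WT cells, and defactinib lowered Cd80, Cd274, Icosl and Cd83 there. A gene counts as called when edgeR's quasi-likelihood test gave a false discovery rate under 0.05 with a fold change over 2. For LPS in WT cells 4 of the 6 members were called higher and 0 lower, where 11.6% of all tested genes were called higher and 9.71% lower. For defactinib in LPS-stimulated WT cells 4 members were called lower and 0 higher, where 18.6% and 10.4% of tested genes were. For LPS in IRF5 KO cells 2 members were called higher and 0 lower, against 7.07% and 6.28% of tested genes, and the same counts stood against 9.64% and 16.6% without IRF5 KO LPS DMSO replicate 3. Defactinib in LPS-stimulated IRF5 KO cells gave 0 called members, 0 at an unadjusted p under 0.05 and 0 in DESeq2, in a comparison that called 0.919% of tested genes in either direction. Without IRF5 KO LPS DMSO replicate 3 it gave 1, Icosl, against 1.45% of tested genes. Less RNA per cell and fewer cells that carry it cannot be told apart in these bulk samples.

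**Figure D1:**
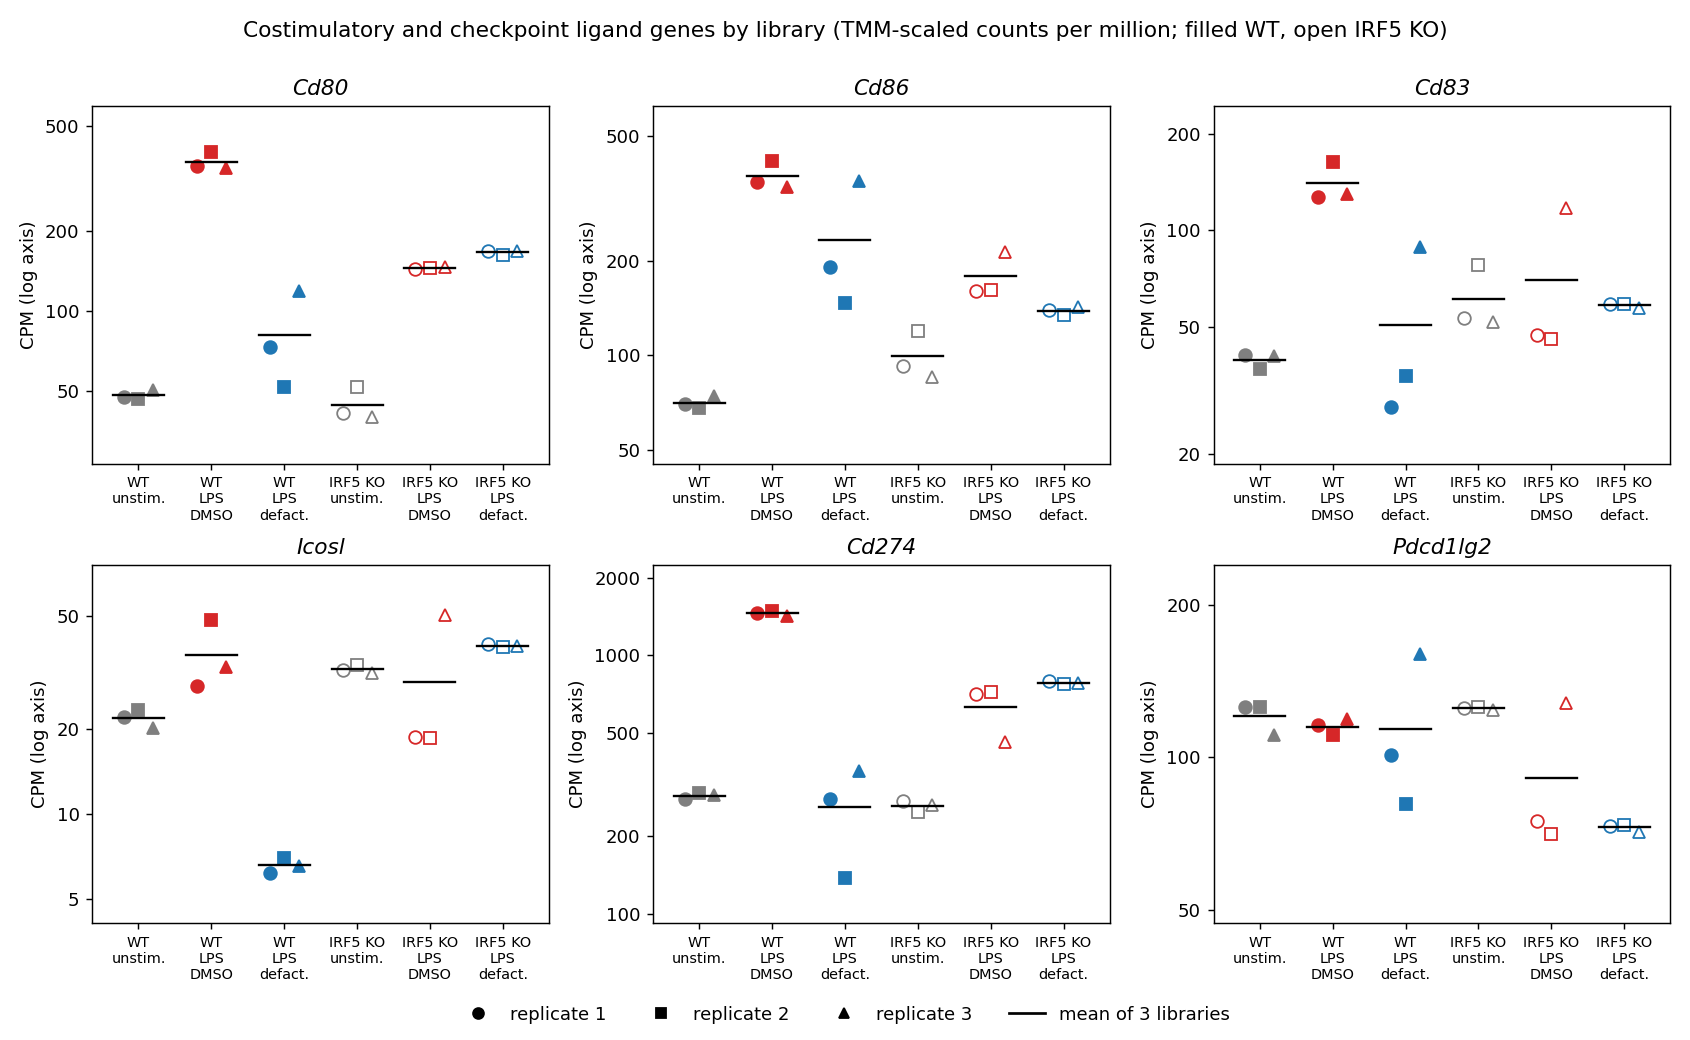
Level of each gene in each of the 18 libraries, in TMM-scaled CPM on a log axis; marker shapes are replicates, black bars are means of 3 libraries, filled markers are WT and open markers IRF5 KO. Cd80 and Cd274 are highest in WT LPS DMSO (348 to 398 and 1420 to 1490 CPM), Icosl is lowest in WT LPS defactinib (6.19 to 7.03 CPM), and IRF5 KO LPS DMSO replicate 3 lies apart from its group for Icosl, Cd83 and Pdcd1lg2.

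**Figure D2:**
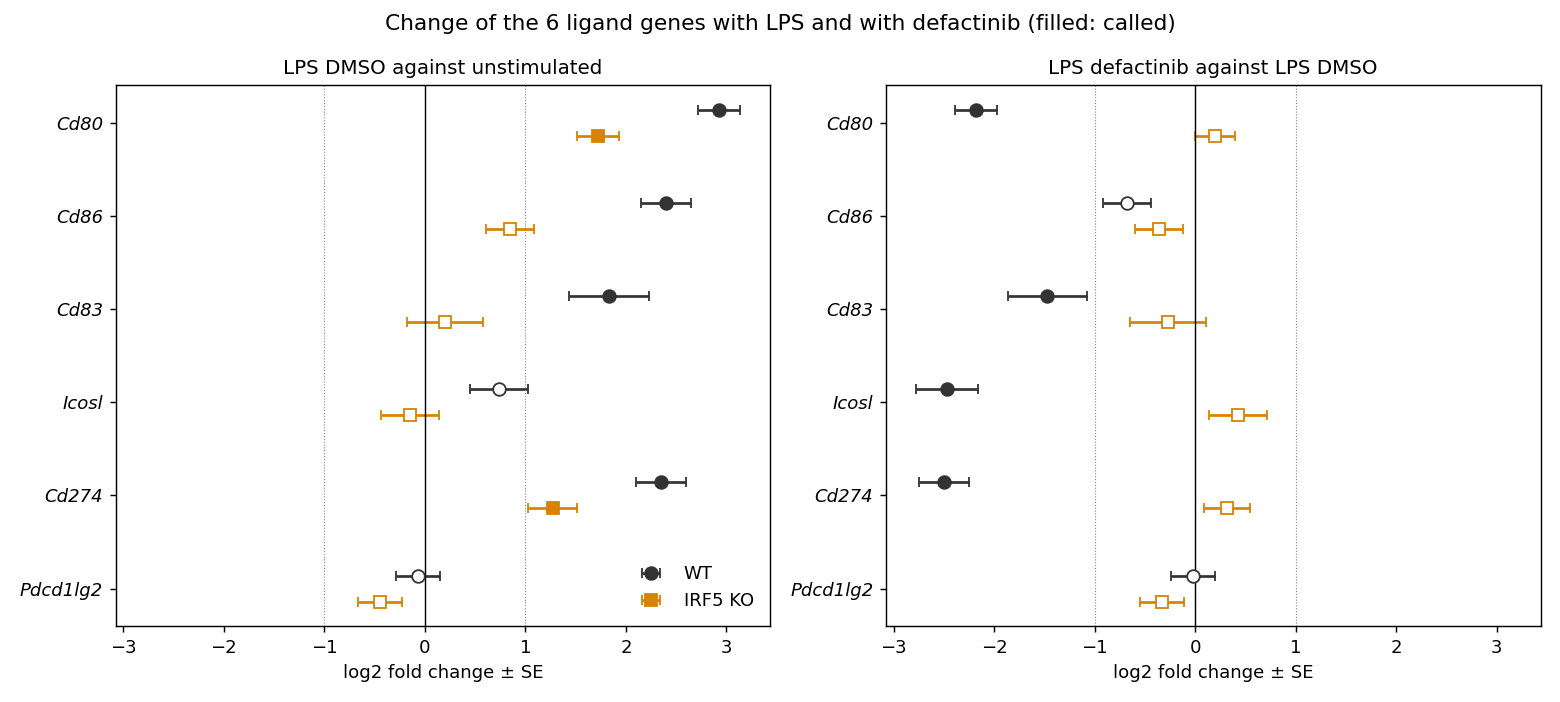
Log2 fold change with its standard error for LPS against no stimulation and for defactinib against DMSO after LPS, in WT (circles) and IRF5 KO (squares), from edgeR's fit of all 18 libraries; filled markers passed the thresholds and dotted lines mark a fold of 2. With defactinib the WT values of Cd80, Icosl and Cd274 lie between -2.50 and -2.18, and the IRF5 KO values of all 6 genes lie between -0.36 and 0.43.

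Sequence upstream of the start site was at hand from RefSeq (GRCm38.p6, the assembly of mm10) for 4 of the members, and it is shown because Cd274 and Pdcd1lg2 are neighbours that responded differently while Cd80 and Cd274 responded alike. All 4 lie on the plus strand, and only bases that no deposited exon covers are printed: chr16:38458683-38458932 for Cd80, chr19:29367391-29367437 for Cd274, chr19:29410669-29410918 for Pdcd1lg2 and chr10:78069118-78069301 for Icosl. Capitals mark matches to the motifs searched.
Cd80: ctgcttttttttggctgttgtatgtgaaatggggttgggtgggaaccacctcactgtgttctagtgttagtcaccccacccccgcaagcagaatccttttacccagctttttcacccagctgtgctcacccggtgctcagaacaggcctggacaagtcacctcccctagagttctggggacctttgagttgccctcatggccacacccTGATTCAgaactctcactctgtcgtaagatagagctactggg
Cd274: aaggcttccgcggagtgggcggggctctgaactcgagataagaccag
Pdcd1lg2: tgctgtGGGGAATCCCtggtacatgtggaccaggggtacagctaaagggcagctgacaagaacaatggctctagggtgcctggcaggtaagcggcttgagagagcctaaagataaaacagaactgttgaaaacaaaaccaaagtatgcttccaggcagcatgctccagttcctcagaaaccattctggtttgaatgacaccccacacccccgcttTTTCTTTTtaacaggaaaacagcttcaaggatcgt
Icosl: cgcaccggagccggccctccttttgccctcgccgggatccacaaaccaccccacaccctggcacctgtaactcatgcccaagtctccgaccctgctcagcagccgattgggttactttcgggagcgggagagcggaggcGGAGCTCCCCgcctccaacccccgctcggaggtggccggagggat
The 250 bases before each RefSeq start were searched on both strands for the NF-kB consensus (the kappaB motif), the interferon-stimulated response element (GAAA and GAAA set 2 bases apart), the shorter IRF core AANNGAAA contained in it, the STAT motif TTCNNNGAA and the AP-1 motif TGANTCA. The kappaB motif matched in Pdcd1lg2 (GGGGAATCCC, positions -244 to -235) and in Icosl (GGAGCTCCCC, -111 to -102, minus strand), and it was present in 7.25% of the 32851 windows of that length in the table. The IRF core matched in Pdcd1lg2 (TTTCTTTT, -35 to -28, minus strand) and in Cd274 at -175 to -168, a stretch that an exon on the opposite strand covers, and in 21.3% of all windows. The AP-1 motif matched in Cd80 (TGATTCA, -42 to -36) and in 6.75% of windows. The interferon-stimulated response element (2.98% of windows) and the STAT motif (7.02%) had no match in these 4 windows. Cd86 and Cd83 are not shown.

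Cd80 (chr16:38458933-38486933, mm10, exons of 1701 bases in total) had the largest LPS response of the 6 in both genotypes. CD80 is the B7 molecule with the higher affinity for CTLA-4 and also binds PD-L1 on the same cell. It was at 47.4, 46.4 and 50.3 CPM in WT unstimulated libraries, at 354, 398 and 348 CPM in WT LPS DMSO and at 72.9, 51.6 and 119 CPM in WT LPS defactinib. The 3 WT groups did not overlap, with LPS DMSO far above the others and the LPS defactinib libraries spread from just above the unstimulated ones upward. LPS raised Cd80 7.64-fold (log2 fold change 2.93 ± 0.21 SE, edgeR adjusted p = 5.9e-08). With defactinib it was 4.52-fold lower than with DMSO (log2 -2.18 ± 0.21, edgeR adjusted p = 7.04e-07), and the remaining log2 difference from unstimulated cells, 0.76 ± 0.20, stayed under the fold threshold (edgeR adjusted p = 0.00561), which it passed without WT LPS defactinib replicate 2 (1.00, edgeR adjusted p = 0.000291), and it was 0.38 ± 0.13 without replicate 3 (edgeR adjusted p = 0.0202).

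Cd80 in IRF5 KO cells was at 41.2, 51.6 and 39.7 CPM unstimulated, at 144, 145 and 146 CPM with LPS and DMSO, and at 169, 163 and 169 CPM with LPS and defactinib. Here every LPS library was above every unstimulated one, and replicate 3 of LPS DMSO lay with its group. LPS raised Cd80 3.28-fold (log2 1.72 ± 0.21, edgeR adjusted p = 7.55e-05, and log2 1.71 without that replicate). Defactinib and DMSO differed by 0.20 ± 0.20 on the log2 scale (edgeR adjusted p = 0.578, and 0.21 ± 0.23 without that replicate). The levels ordered WT LPS DMSO, IRF5 KO LPS defactinib, IRF5 KO LPS DMSO, WT LPS defactinib and then both unstimulated groups, and of these neighbours only the unstimulated groups overlapped.

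Cd86 (chr16:36603869-36666081, minus strand, exons of 3661 bases) rose with LPS in WT cells, and its change with defactinib was not called. CD86 is already present on resting antigen-presenting cells, and its gene starts 1.79 megabases from the start of Cd80 on the same chromosome. It was at 69.8, 67.7 and 73.9 CPM in WT unstimulated libraries, at 355, 415 and 344 CPM in WT LPS DMSO and at 191, 147 and 359 CPM in WT LPS defactinib. Replicates 1 and 2 with defactinib were below all LPS DMSO libraries, and replicate 3 was among them. LPS raised Cd86 5.27-fold (log2 2.40 ± 0.25, edgeR adjusted p = 1.88e-06), whereas the change with defactinib, -0.68 ± 0.24, was under the fold threshold (edgeR adjusted p = 0.0233). Without WT LPS defactinib replicate 3 it was -1.12 ± 0.16 and was called (edgeR adjusted p = 4.84e-05). Cd86 was also the only member called higher in WT LPS defactinib than in WT unstimulated cells (log2 1.72 ± 0.24, edgeR adjusted p = 5.47e-05), in a comparison that called 9.10% of tested genes higher.

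Cd86 in IRF5 KO cells was at 92.5, 119 and 85.2 CPM unstimulated, at 160, 161 and 213 CPM with LPS and DMSO, and at 139, 134 and 142 CPM with defactinib. The 3 groups did not overlap, yet the steps between them were small beside those in WT. LPS changed it by 0.85 ± 0.24 on the log2 scale (edgeR adjusted p = 0.0146), which did not reach a fold of 2, and by 0.69 without replicate 3 (edgeR adjusted p = 0.0325). The change with defactinib was -0.36 ± 0.24 (edgeR adjusted p = 0.368), and -0.22 ± 0.26 without replicate 3. In the order of group means, from 371 ± 38.5 CPM (SD, n = 3) in WT LPS DMSO to 70.5 ± 3.14 CPM in WT unstimulated, WT LPS defactinib overlapped with both of its neighbours, WT LPS DMSO and IRF5 KO LPS DMSO.

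Cd83 (chr13:43785107-43803130, exons of 2143 bases) rose with LPS and was lower with defactinib in WT cells. It was at 40.8, 36.9 and 40.5 CPM unstimulated, at 127, 163 and 130 CPM with LPS and DMSO, and at 28.1, 35.1 and 88.6 CPM with LPS and defactinib. Every LPS DMSO library was above every other WT library, and 2 of the 3 defactinib libraries were below all unstimulated ones. LPS raised Cd83 3.55-fold (log2 1.83 ± 0.40, edgeR adjusted p = 0.0016), and it was 2.76-fold lower with defactinib than with DMSO (log2 -1.47 ± 0.39, edgeR adjusted p = 0.00518). Leaving out WT LPS defactinib replicate 3 moved the latter to -2.12 ± 0.35 (edgeR adjusted p = 0.000192).

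Cd83 in IRF5 KO cells was at 53.4, 78 and 51.8 CPM unstimulated, at 47.3, 45.9 and 117 CPM with LPS and DMSO, and at 58.7, 58.7 and 57.4 CPM with defactinib. Apart from LPS DMSO replicate 3, the LPS DMSO libraries were the lowest of the genotype. The LPS change was 0.20 ± 0.38 (edgeR adjusted p = 0.704) and turned to -0.39 ± 0.37 without that replicate (edgeR adjusted p = 0.383). The defactinib change likewise turned, from -0.27 ± 0.38 to 0.32 ± 0.37 (edgeR adjusted p = 0.715 and 0.645). No direction can be read for Cd83 in this genotype.

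Icosl (chr10:78069302-78083913, exons of 4620 bases) was the member with the lowest level and the only one called lower with LPS and defactinib than without stimulation. It was at 22.1, 23.3 and 20.2 CPM in WT unstimulated libraries, at 28.3, 48.3 and 33.1 CPM in WT LPS DMSO and at 6.19, 7.03 and 6.58 CPM in WT LPS defactinib. All 3 groups were separate, and the defactinib libraries were the tightest and lowest. The LPS change, 0.74 ± 0.29, was not called (edgeR adjusted p = 0.0528). With defactinib Icosl was 5.54-fold lower than with DMSO (log2 -2.47 ± 0.31, edgeR adjusted p = 1.03e-05) and 3.32-fold lower than in unstimulated cells (log2 -1.73 ± 0.30, edgeR adjusted p = 0.000322), where 15.8% of tested genes were called lower.

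Icosl in IRF5 KO cells was at 32.2, 33.7 and 31.4 CPM unstimulated, at 18.7, 18.6 and 50.4 CPM with LPS and DMSO, and at 39.8, 39 and 39.2 CPM with LPS and defactinib. Replicates 1 and 2 of LPS DMSO were the lowest of the genotype and replicate 3 the highest. With all 3 replicates neither LPS (-0.15 ± 0.29, edgeR adjusted p = 0.706) nor defactinib (0.43 ± 0.29, edgeR adjusted p = 0.392) was called. Without replicate 3 the LPS change was -0.80 ± 0.16 (edgeR adjusted p = 0.000283), still under the fold threshold, and defactinib raised Icosl 2.11-fold (log2 1.08 ± 0.16, edgeR adjusted p = 0.000721). That call was made in a fit in which 1.45% of tested genes were called in either direction, and it is opposite in sign to the WT change.

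Cd274 (chr19:29367455-29388095, exons of 3622 bases) had the highest mean per exon length of the 6 in every group but IRF5 KO unstimulated, where Pdcd1lg2 was above it. PD-L1, its product, restrains T cells through PD-1 and pairs with CD80 on the same membrane. It was at 278, 294 and 287 CPM in WT unstimulated libraries, at 1460, 1490 and 1420 CPM in WT LPS DMSO and at 278, 138 and 357 CPM in WT LPS defactinib. The LPS DMSO libraries were far above all others, and the defactinib libraries lay on both sides of the unstimulated ones. LPS raised Cd274 5.09-fold (log2 2.35 ± 0.25, edgeR adjusted p = 2.03e-06). With defactinib it was 5.65-fold lower than with DMSO (log2 -2.50 ± 0.25, edgeR adjusted p = 1.03e-06), and its difference from unstimulated cells was -0.15 ± 0.23 (edgeR adjusted p = 0.606).

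Cd274 in IRF5 KO cells was at 274, 248 and 264 CPM unstimulated, at 710, 719 and 464 CPM with LPS and DMSO, and at 798, 776 and 781 CPM with LPS and defactinib. Every LPS library was above every unstimulated one, and replicate 3 was the lowest of the LPS DMSO libraries. LPS raised Cd274 2.41-fold (log2 1.27 ± 0.24, edgeR adjusted p = 0.00211, and log2 1.44 ± 0.24 without replicate 3). The difference between defactinib and DMSO was 0.32 ± 0.23 (edgeR adjusted p = 0.437) and 0.14 ± 0.24 without replicate 3 (edgeR adjusted p = 0.78).

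Pdcd1lg2 (chr19:29410919-29471157, exons of 1645 bases) starts 22.8 kilobases after the end of Cd274 and did not share its response. Its product PD-L2 binds PD-1 and, through another site, RGMB. It was at 126, 126 and 111 CPM in WT unstimulated libraries, at 116, 111 and 119 CPM in WT LPS DMSO and at 101, 80.7 and 160 CPM in WT LPS defactinib. The 3 groups overlapped. The LPS change was -0.07 ± 0.22 (edgeR adjusted p = 0.829) and the defactinib change -0.02 ± 0.22 (edgeR adjusted p = 0.949), values of no settled direction.

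Pdcd1lg2 in IRF5 KO cells was at 125, 126 and 124 CPM unstimulated, at 74.7, 70.5 and 128 CPM with LPS and DMSO, and at 73.3, 73.6 and 71.2 CPM with LPS and defactinib. All LPS libraries except DMSO replicate 3 were well below the unstimulated ones. The LPS change with DMSO was -0.45 ± 0.22 (edgeR adjusted p = 0.11), and -0.78 ± 0.18 without replicate 3 (edgeR adjusted p = 0.00166). With defactinib the LPS change was -0.78 ± 0.22 (edgeR adjusted p = 0.00758). Defactinib and DMSO differed by -0.33 ± 0.22 (edgeR adjusted p = 0.382), and by 0.00 ± 0.18 without replicate 3. None of these reached a fold of 2, except that the LPS change with defactinib was called at -1.14 with library size alone (edgeR adjusted p = 0.00111).

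**Figure D3:**
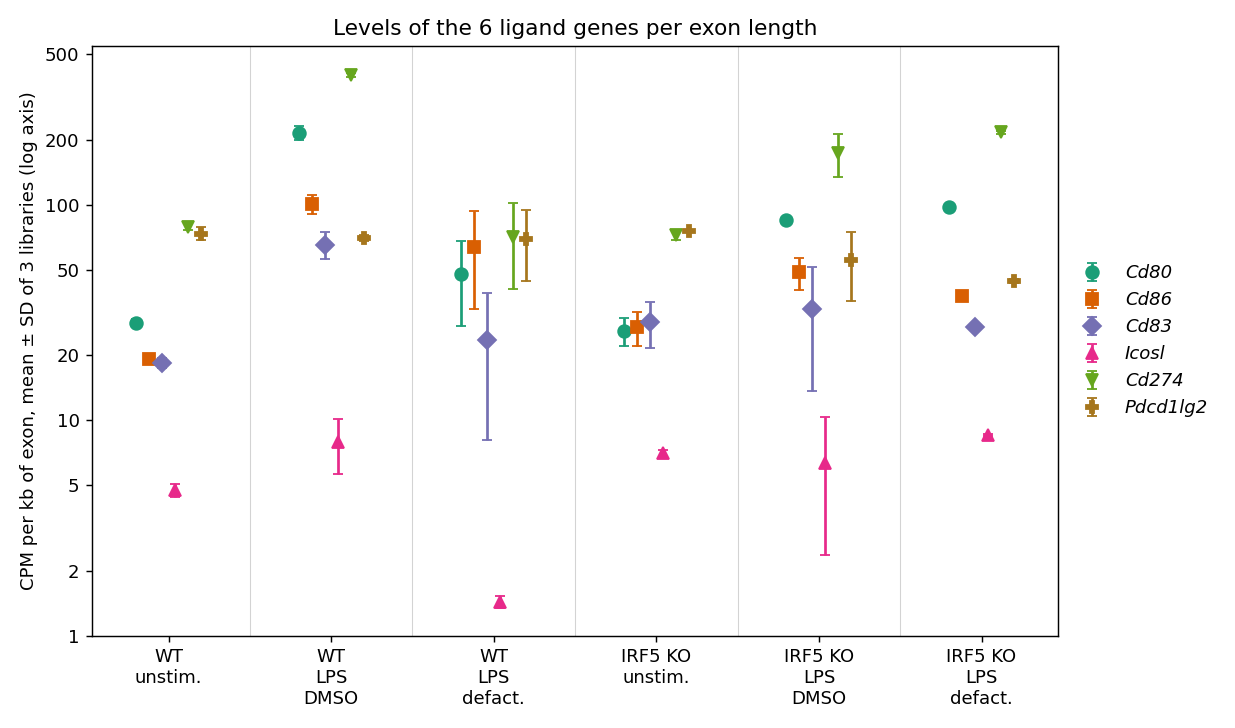
Mean level per exon length, in CPM per kilobase on a log axis with SD over 3 libraries, for the 6 genes in each group. Cd274 leads in WT LPS DMSO at 402 CPM per kb, Pdcd1lg2 stays between 44.2 and 75.9 CPM per kb, and Icosl is lowest in every group, down to 1.43 CPM per kb in WT LPS defactinib.

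Per exon length, which allows levels of different genes to be compared, the 2 PD-1 ligands were close in WT unstimulated cells, at 79 CPM per kb for Cd274 and 73.6 for Pdcd1lg2. After LPS with DMSO they stood at 402 and 70.1 CPM per kb, and with defactinib at 71.1 and 69.2. The CD28 ligands were at 28.2 (Cd80) and 19.2 (Cd86) CPM per kb in WT unstimulated cells and at 216 and 101 after LPS. With defactinib their order was turned, at 47.7 for Cd80 and 63.4 for Cd86, though their libraries spread widely (SD of the CPM of 34.5 and 112).

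The comparison of genotypes asked whether the members depend on IRF5. In unstimulated cells 0 members were called between WT and IRF5 KO, 0 had an unadjusted p under 0.05 and 0 were called in DESeq2, where 7.31% of tested genes were called in edgeR. Cd86 was at -0.49 ± 0.24, lower in WT (edgeR adjusted p = 0.203, and 0.024 without WT LPS defactinib replicate 3). Icosl was at 20.2 to 23.3 CPM in WT and 31.4 to 33.7 CPM in IRF5 KO unstimulated libraries, groups that did not overlap. Its difference was -0.57 ± 0.29 (edgeR adjusted p = 0.234). It was -0.57 ± 0.13 when replicate 3 of IRF5 KO LPS DMSO was left out (edgeR adjusted p = 0.00462), under the fold threshold in both fits. After LPS with DMSO 25.8% of tested genes were called in either direction, and 54.4% of those calls were higher in WT. Of the members 3 of 6 were called, all higher in WT. These were Cd80 (2.53-fold, log2 1.34 ± 0.20, edgeR adjusted p = 7.52e-05), Cd274 (2.31-fold, log2 1.21 ± 0.24, edgeR adjusted p = 0.000681) and Cd86 (2.09-fold, log2 1.06 ± 0.24, edgeR adjusted p = 0.00182). Cd86 fell under the fold threshold without WT LPS DMSO replicate 2 (0.96) or without IRF5 KO LPS DMSO replicate 1 or 2 (0.98 each), and with library size alone Cd86 (0.80) and Cd274 (0.97) both did. Cd83 was at the fold threshold and not called (log2 1.00 ± 0.39, edgeR adjusted p = 0.0418), and DESeq2 called it (1.02, adjusted p = 0.0149), as did edgeR with DESeq2 size factors (1.02). It was called without IRF5 KO LPS DMSO replicate 3 (log2 1.59 ± 0.38, edgeR adjusted p = 0.00262), which made 4 of 6 higher in WT. That fit called 34.5% of tested genes in either direction and 20.7% higher in WT. Cd80, Cd86 and Cd274 stayed called there at 1.34, 1.21 and 1.03.

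With LPS and defactinib 3 members were lower in WT than in IRF5 KO. Cd80 (2.05-fold), Cd274 (3.05-fold) and Icosl (5.96-fold) were called lower in WT than in IRF5 KO, with log2 differences of -1.04 ± 0.20, -1.61 ± 0.24 and -2.58 ± 0.31 and edgeR adjusted p of 0.000844, 8.52e-05 and 1.12e-05. That is 3 of 6 members, where 8.87% of tested genes were called lower in WT. Cd80 was close to the threshold and fell under it without WT LPS defactinib replicate 1 or 2, at -0.93 and -0.79, with library size alone (-0.97) and with a filter of 5 CPM in 3 libraries (-0.99). Cd86 (0.75 ± 0.24, edgeR adjusted p = 0.0218) and Pdcd1lg2 (0.65 ± 0.22, edgeR adjusted p = 0.0302) were higher in WT by less than 2-fold. Cd86 and Pdcd1lg2 were at 0.30 and 0.34 without WT LPS defactinib replicate 3 (edgeR adjusted p = 0.149 and 0.182), and without replicate 2 of that group Cd86 was called at 1.00 (edgeR adjusted p = 0.00242). In IRF5 KO cells LPS with defactinib still raised Cd80 (3.77-fold) and Cd274 (3-fold) over unstimulated cells, where 7.85% of tested genes were called higher, with edgeR adjusted p of 1.18e-05 and 0.00015.

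Whether the 2 genotypes responded differently was tested as the difference between their log2 fold changes. For LPS this difference was called for Cd86 (1.55 ± 0.34, edgeR adjusted p = 0.00619), Cd80 (1.22 ± 0.28, edgeR adjusted p = 0.00942) and Cd274 (1.08 ± 0.33, edgeR adjusted p = 0.0358), each with the larger rise in WT. These are 3 of 6 members, where 6.33% of tested genes were called in that direction. Cd83 had the largest difference, 1.63 ± 0.55, but missed the threshold (edgeR adjusted p = 0.0525), which it passed in DESeq2 (1.65, adjusted p = 0.0132), with DESeq2 size factors (1.65), the 5 CPM filter (1.6) or only the groups compared (1.61), and without WT LPS defactinib replicate 1 or 3 (1.61 each). Without IRF5 KO LPS DMSO replicate 3 the calls were Cd83 (2.22 ± 0.50), Cd86 (1.70 ± 0.36), Icosl (1.54 ± 0.21) and Cd80 (1.22 ± 0.31), with edgeR adjusted p of 0.00273, 0.0014, 1.2e-05 and 0.00431, where 16.5% of tested genes were called in that direction. Cd274 was then under the fold threshold at 0.90 ± 0.32 (edgeR adjusted p = 0.0338). The call of Cd274 was also lost without any 1 of the 9 libraries of WT unstimulated, WT LPS DMSO and IRF5 KO unstimulated (1.04 to 1.12, edgeR adjusted p from 0.0566 to 0.0769) with no filter on low counts (1.09, edgeR adjusted p = 0.0651) and with library size alone (0.96).

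For defactinib the difference between genotypes was called for Icosl (-2.90 ± 0.42, edgeR adjusted p = 8.31e-05), Cd274 (-2.82 ± 0.34, edgeR adjusted p = 1.42e-05) and Cd80 (-2.38 ± 0.29, edgeR adjusted p = 1.42e-05), each lower with the drug in WT than in IRF5 KO. That was 3 of 6 members, where 12.3% of tested genes were called in that direction. The differences for Cd83 (-1.20 ± 0.54, edgeR adjusted p = 0.0972), Cd86 (-0.31 ± 0.33) and Pdcd1lg2 (0.31 ± 0.31) were not called. Without WT LPS defactinib replicate 3, Cd83 was called at -1.84 (edgeR adjusted p = 0.00471) and Cd86 was at -0.74 ± 0.21, under the fold threshold (edgeR adjusted p = 0.0113). Leaving out IRF5 KO LPS DMSO replicate 3 also made Cd83 pass (-1.79 ± 0.50, edgeR adjusted p = 0.00812), in a fit that called 18.8% of tested genes in that direction, and Icosl, Cd274 and Cd80 stayed called at -3.55, -2.64 and -2.38.

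**Figure D4:**
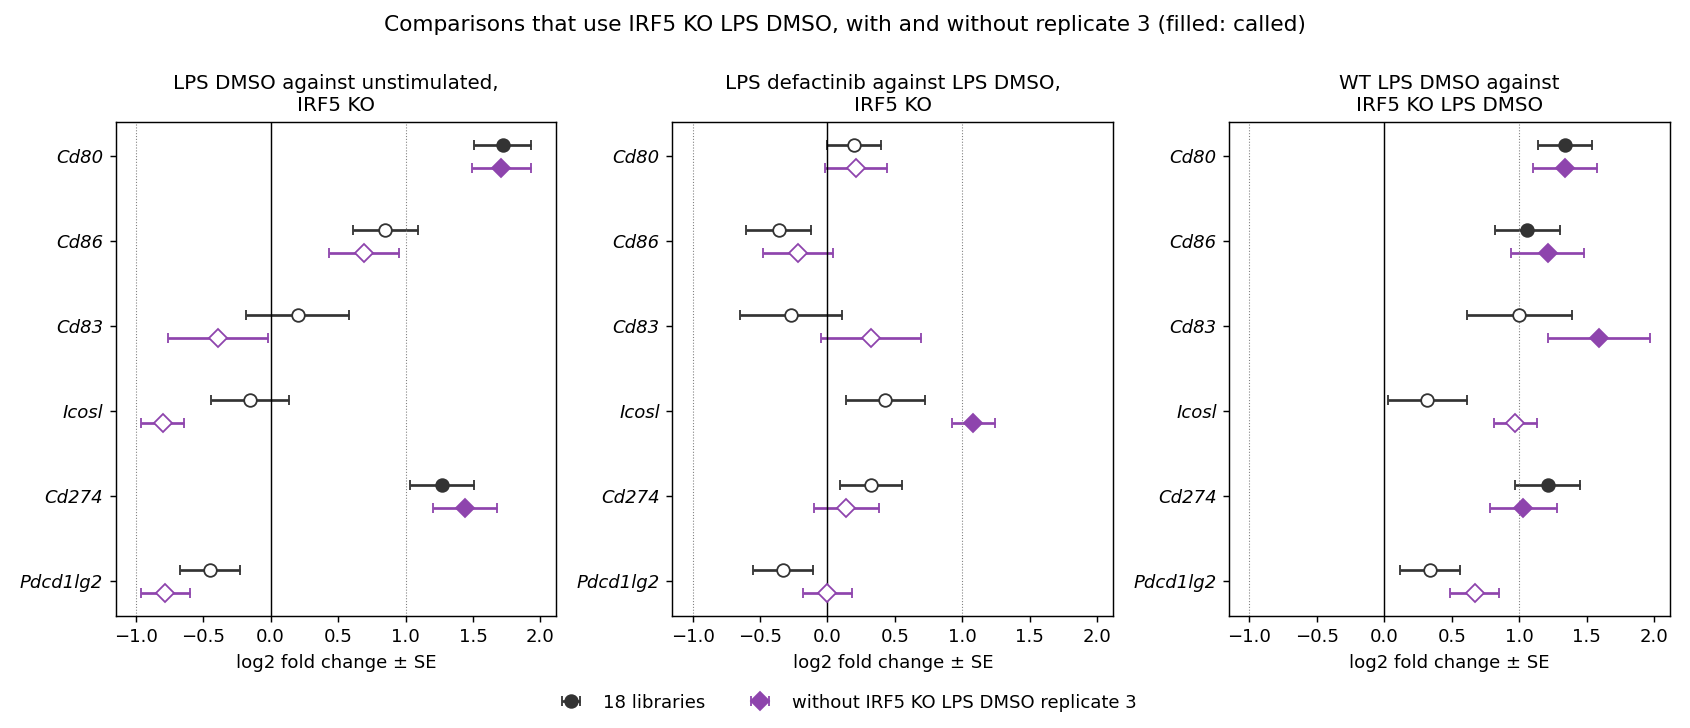
Log2 fold change with its standard error in 3 of the comparisons that use IRF5 KO LPS DMSO, from all 18 libraries (circles) and without its replicate 3 (diamonds). Filled markers passed the thresholds. Cd80 hardly moves (1.72 and 1.71 for LPS), while Icosl with defactinib goes from 0.43 to 1.08 and Cd83 with LPS from 0.20 to -0.39.

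Related genes were examined as lists. Over all tested genes, LPS in WT called 11.6% higher and 9.71% lower, and defactinib in WT called 10.4% higher and 18.6% lower. In IRF5 KO cells LPS called 7.07% higher and 6.28% lower. Defactinib there called 0.919% in either direction, or 1.45% without IRF5 KO LPS DMSO replicate 3, so a count of 0 for a short list is near the share of all genes. Of the 15 other B7 and checkpoint ligands 11 were tested. In WT cells LPS called 6 higher and 2 lower, with a median log2 of 1.10, and defactinib called 5 lower and 1 higher, with a median of -0.44; the medians over all tested genes were 0 and 0.09. Nectin2 and Pvr, ligands of the checkpoint receptor TIGIT, rose with LPS (3.15 and 2.90 on the log2 scale) and were lower with defactinib (-3.72 and -2.64). Cd200, an inhibitory ligand of myeloid cells, and Btla, an inhibitory receptor, went the same way (3.58 and 1.97 with LPS, -1.93 and -2.77 with defactinib). Lgals9, the most abundant of the list, rose with LPS (1.10) without a call for defactinib (-0.32), and Nectin3 rose by 2.06 with LPS and was at -4.31 with defactinib, at a mean log2 CPM of -2.56, near the filter. Vsir, which encodes the checkpoint ligand VISTA, fell with LPS (-2.02) and was higher with defactinib (1.81), and Cd276 (B7-H3) fell with LPS (-1.69). In IRF5 KO cells LPS called Pvr higher (1.35) and Cd276 lower (-1.41), and defactinib called 0 of 11. Without IRF5 KO LPS DMSO replicate 3 both LPS calls stood (1.16 and -1.41), Nectin2 (-1.56) and Tnfrsf14 (-1.11) were called lower as well, and defactinib again called 0. Nectin2 was at 10.7, 12.2 and 101 CPM in the 3 libraries of that group, replicate 3 being the high one.

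All 8 TNF family costimulators were tested, and their medians were 3.70 for LPS and -3.20 for defactinib in WT cells. LPS called 6 higher: Tnfsf15 (5.31), Cd70 (5.26), Cd40 (5.11), Tnfsf9 (3.87), Tnfsf18 (3.52) and Tnfsf4 (3.09). Cd40 is the receptor through which T cells license antigen-presenting cells, and Tnfsf4 and Tnfsf9 encode OX40 ligand and 4-1BB ligand. With defactinib 7 of 8 were called lower, from -2.68 for Tnfsf4 to -5.22 for Tnfsf15, and Tnfsf9 was the exception at 0.56. Cd40 was at -3.47, Cd70 at -3.73, Tnfsf14 at -3.25, Tnfsf18 at -3.15 and Tnfsf8 at -3.12. In IRF5 KO cells LPS called 4 higher, Tnfsf9 (4.69), Tnfsf15 (3.72), Cd70 (2.82) and Cd40 (2.70), and Tnfsf14 lower (-1.73). Without IRF5 KO LPS DMSO replicate 3 these 5 stayed called at 5.19, 1.91, 1.22, 1.58 and -2.83, and Tnfsf8 was called lower too (-2.49). Tnfsf15 was at 85.6, 84.6 and 727 CPM and Cd40 at 43.5, 45.1 and 200 CPM in that group, with replicate 3 far above, whereas Tnfsf9 was at 176, 175 and 22.4 CPM, with replicate 3 far below. For defactinib the sole call in IRF5 KO cells was Tnfsf8, lower by -2.61 (edgeR adjusted p = 0.0499), and it rested on replicate 3: the gene was at 16.1, 16.8 and 180 CPM with DMSO, and without that library the change was -0.49 ± 0.21 (edgeR adjusted p = 0.178). Tnfsf15 (1.35) and Tnfsf14 (1.17) were then called higher with defactinib.

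Of 11 adhesion and SLAM family costimulators LPS in WT called 4 higher, Slamf1 (3.18), Vcam1 (2.78), Slamf7 (2.31) and Icam1 (2.07), and Cd244a lower (-1.78). The first 4 were also the ones called lower with defactinib, at -1.68, -2.01, -2.90 and -2.36, while Slamf6 was called higher (1.39). Icam1, which engages LFA-1 on T cells, was the most abundant of the list and the only one that LPS raised in IRF5 KO cells, with replicate 3 of LPS DMSO (1.29) and without it (1.34). Cd24a and Alcam, the next most abundant by mean log2 CPM, were not called in these comparisons, at -0.22 and 0.99 for LPS in WT. Defactinib called 0 of 11 in IRF5 KO cells in both fits.

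**Figure D5:**
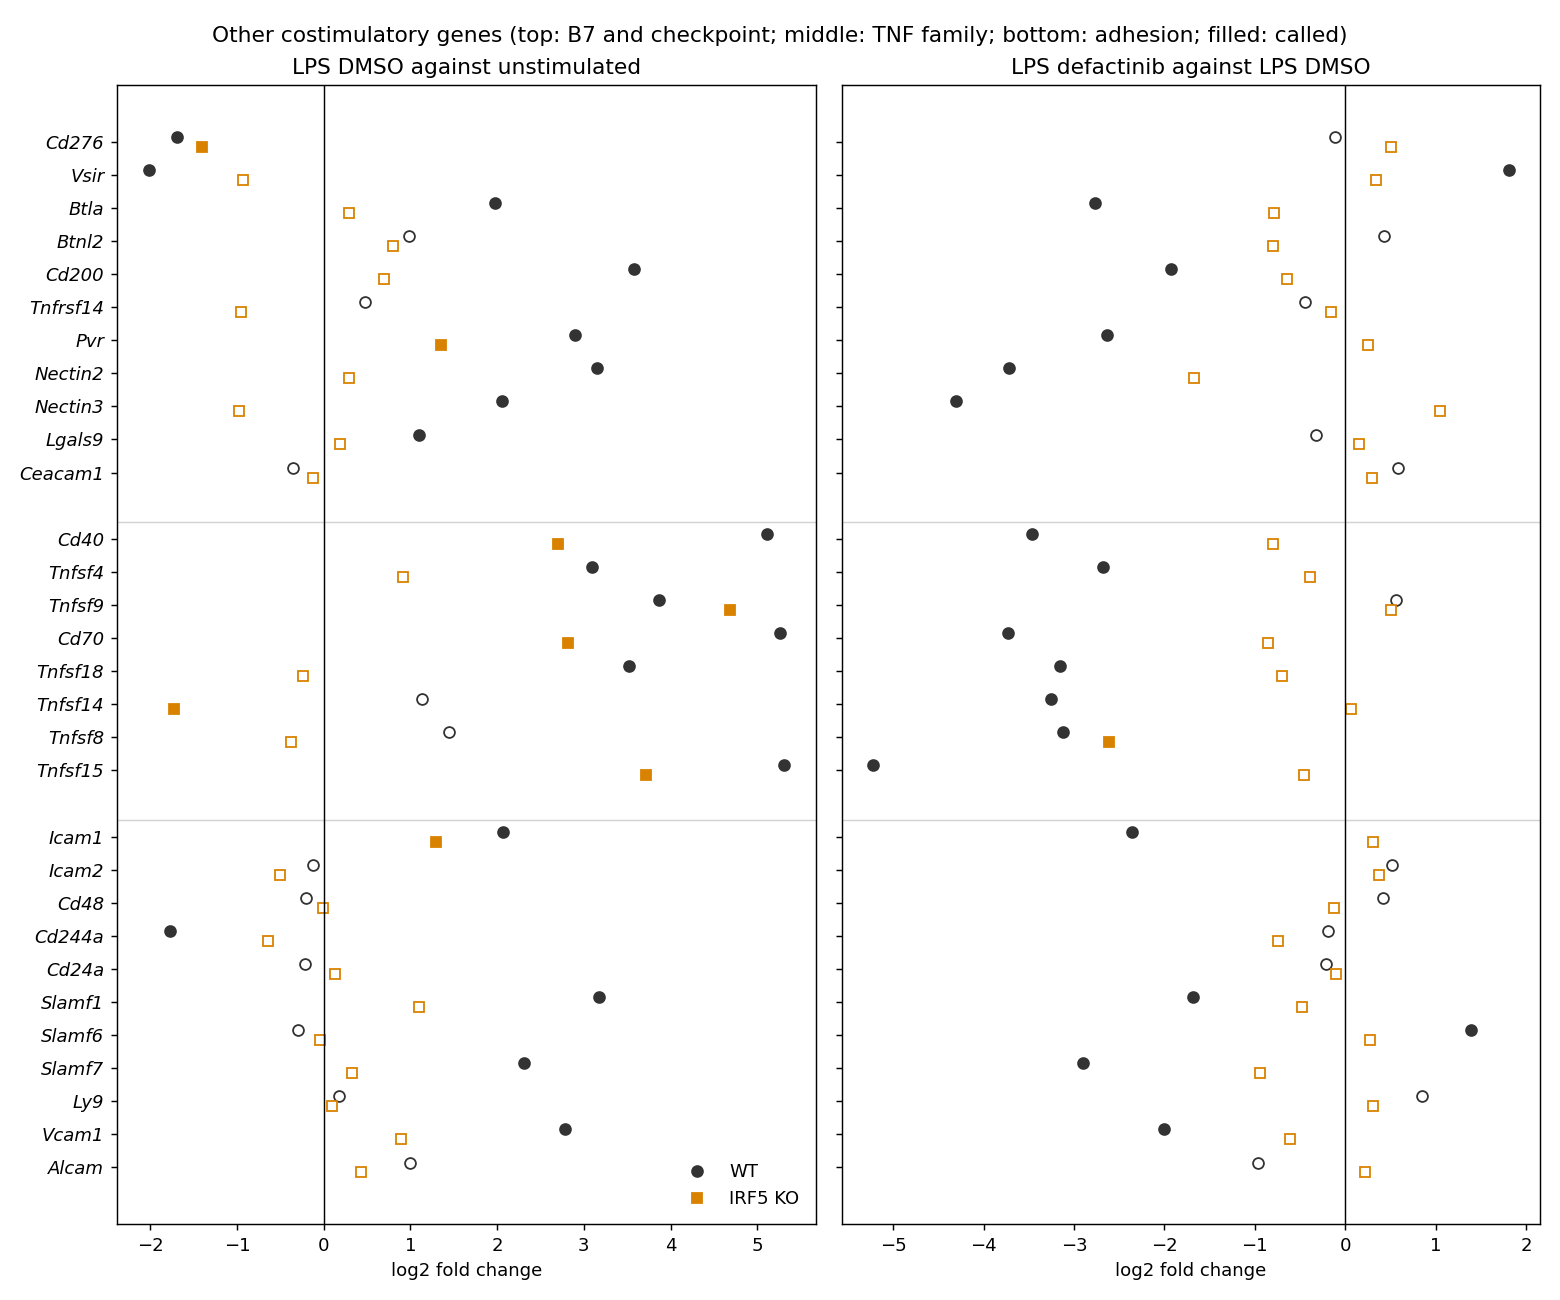
Log2 fold change of 30 related genes in WT (circles) and IRF5 KO (squares) for LPS against no stimulation and for defactinib against DMSO after LPS; filled markers passed the thresholds. In WT the TNF family genes lie between 1.13 and 5.31 for LPS and between -5.22 and 0.56 for defactinib, and in IRF5 KO 1 of the 30 genes, Tnfsf8, is called for defactinib, a call lost without IRF5 KO LPS DMSO replicate 3 (-0.49).

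The receptors that the members bind on T cells were scarce, as the markers of T cells were. Of 5, Ctla4 was below the filter, and Pdcd1, Cd28 and Icos were at mean log2 CPM of -2.32, -0.62 and 0.12. LPS called Icos higher in WT (2.59), and defactinib called Pdcd1 lower (-4.93). Of the 4, 0 were called in IRF5 KO cells for LPS or defactinib, and without IRF5 KO LPS DMSO replicate 3 LPS called Pdcd1 (-3.72) and Cd28 (-1.25) lower. Rgmb, the other partner of PD-L2, was at 3.45 and was called lower with defactinib in WT (-2.77). Among 14 regulators of the members, LPS in WT called 7 higher, among them Irf1 (4.18), Irf8 (3.24), Rel (2.56), Nfkb1 (1.85), Relb (1.32) and Stat3 (1.05). With defactinib Irf1 (-4.83), Ciita (-2.63), Irf8 (-2.37), Rel (-1.51) and Batf (-1.09) were called lower and Batf3 (1.19) higher. In IRF5 KO cells LPS called Rel (2.00), Nfkb1 (1.38) and Irf1 (1.13) higher and Marchf1 (-1.11) lower, and defactinib called 0 of 14. Irf1 was at 51.4, 50.5 and 213 CPM in IRF5 KO LPS DMSO, and without replicate 3 its change was 0.09 ± 0.09 (edgeR adjusted p = 0.414). Rel (2.29), Nfkb1 (1.53) and Marchf1 (-1.54) stayed called in that fit, Ciita (-1.59) and Cmtm4 (-1.21) were called lower as well, and defactinib called 0. Marchf1 encodes the ligase that removes CD86 and MHC class II from the surface. Cmtm6, which protects PD-L1 from degradation, was at 0.40 for LPS and -0.53 for defactinib in WT, without a call, and Cmtm4 fell with LPS (-1.33).

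Markers of other cell types moved with some of these comparisons. Summed dendritic cell markers were at 2470 to 2670 CPM in WT unstimulated libraries, 3880 to 4100 in WT LPS DMSO and 2800 to 3870 in WT LPS defactinib, and at 2110 to 2160, 2610 to 3140 and 3150 to 3320 CPM in the corresponding IRF5 KO groups. LPS in WT called 3 of the 8 tested higher, Fscn1 (3.41), Ccr7 (3.11) and Flt3 (2.02), while Itgax was at 0.08, and defactinib called Ccr7 (-3.74) and Zbtb46 (-1.85) lower and Dpp4 (1.42) higher. Itgax was the most abundant, and Xcr1 and Siglech stayed below 0.4 CPM in every library. Summed macrophage markers were at 9820 to 10200 CPM in WT unstimulated, 9740 to 10300 in WT LPS DMSO and 10800 to 15100 CPM in WT LPS defactinib libraries, and at 10300 to 14700, 9900 to 12400 and 18200 to 19200 CPM in the corresponding IRF5 KO groups, where the defactinib libraries lay above all others. Summed neutrophil markers, mainly S100a8 and S100a9, were at 43.5 to 59.8, 91.8 to 174 and 100 to 124 CPM in the 3 WT groups and at 51.3 to 62, 118 to 123 and 121 to 146 CPM in the IRF5 KO groups. Of the 6 mast cell and basophil markers Mcpt4 had no count, and their sum did not pass 21.2 CPM in any library. In WT cells LPS called 4 of the 5 tested neutrophil markers higher, and defactinib called 0. Of 3 tested mast cell and basophil markers LPS in WT called 1 higher and defactinib 1 lower. Of 3 tested T and NK cell markers LPS in WT called 1 higher and 1 lower, and defactinib 1 higher. Lyz2 made up most of the macrophage sum, and single macrophage markers changed on their own. LPS in WT called Cd14 (2.64) and Mertk (1.18) higher, and defactinib called both lower (-1.93 and -1.65) and Adgre1 higher (1.14). Adgre1 was at 73.3 ± 2.62 CPM in WT and 302 ± 16 CPM in IRF5 KO unstimulated libraries (SD, n = 3), a called difference of -2.04. In IRF5 KO cells LPS called Fscn1 higher with replicate 3 of LPS DMSO (1.96) and without it (1.83), and Cd14 with it (1.17) but not without it (0.85). Adgre1 (1.14), Flt3 (1.01) and Cpa3 (1.38) were called higher, and Fcgr1 (-1.26) and the NK cell marker Klrb1c (-2.93) lower, in the fit without it and not in the fit with it. The neutrophil markers Ly6g (1.46 and 1.54), S100a8 (1.06 and 1.05) and S100a9 (1.19 and 1.19) were called higher with LPS in IRF5 KO cells in both fits. So was the B cell marker Cd79a (4.99 and 5.58), which did not pass 0.824 CPM in any library. Defactinib in IRF5 KO cells called Clec9a, a marker of cross-presenting dendritic cells, higher in both fits (1.06 and 1.05). The part of these changes in the members' values was not tested.

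Across the 18 libraries Cd80 and Cd274 were the members most alike (Pearson r = 0.94 and Spearman rho = 0.90 of log2 CPM), followed by Cd80 and Cd86 (0.83 and 0.74). Pdcd1lg2 was the least like the rest, with r from -0.27 to 0.33. These values describe 18 libraries that fall into 6 treated groups, share their culture conditions and were normalised together. Among the other genes whose log2 CPM averaged 1 or more, the pattern most like that of Cd80 was that of Rnf19b (r = 0.981), with Rbbp8 (0.978) and Rnf11 (0.977) next. For Cd274 it was Skil (0.987), Wdr37 (0.986) and Fbxw11 (0.985), for Cd86 C130026I21Rik (0.971), Yes1 (0.967) and Poglut1 (0.966), and for Cd83 Irf8 (0.975), Slamf1 (0.948) and Fam49a (0.945). For Icosl it was Zfp869 (0.961), Repin1 (0.954) and Rbm12b2 (0.954), and for Pdcd1lg2 Bcl2l2 (0.931), Mocs1 (0.931) and Rnf40 (0.929). Over the 15 libraries outside IRF5 KO LPS DMSO, Rnf19b and Irf8 remained first for Cd80 (0.987) and Cd83 (0.972), and the first places went to Zfr for Cd274 (0.992), Poglut1 for Cd86 (0.973), Rbmxl1 for Icosl (0.975) and Gm15922 for Pdcd1lg2 (0.94).

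Ptk2b, which encodes the target of the inhibitor, was itself lower with defactinib in WT cells, at 105, 101 and 122 CPM against 162, 169 and 172 CPM with DMSO, a log2 change of -0.62 ± 0.09 that was under the fold threshold (edgeR adjusted p = 2.44e-05). In IRF5 KO cells it was at 162, 166 and 151 CPM with defactinib and 153, 151 and 170 CPM with DMSO, groups that overlapped.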

How the data were processed

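The authors aligned the reads with STAR to mm10 and counted read pairs per gene with featureCounts (version 1.6.3 in the file header, strand setting 2, minimum mapping quality 255), and the deposited values are raw counts summed over the exons of each gene. Overlapping genes on one strand and near-identical copies were not separated further. All 18 deposited columns were used, and 50376 of 50600 IDs had a symbol. The 6 genes, the related lists and the tests were chosen with earlier results of these data known.

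Counts were filtered by edgeR's filterByExpr (15663 genes kept), scaled by TMM and fitted with 1 mean per group over all 18 libraries in edgeR 4.0.16 (R 4.3.3, limma 3.58.1). The quasi-likelihood test was robust and two-sided, with Benjamini-Hochberg adjustment over all tested genes. Standard errors were the log2 fold change divided by the root of F. The procedure was tested on simulated data with the same spread for all genes and no deviating library, so that test does not cover a group like IRF5 KO LPS DMSO. CPM were scaled by the TMM library sizes, and log2 CPM used a prior count of 2. The study's labels call the replicates biological without tying them to animals, so p-values measure the spread between these libraries.

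From the related lists, genes were named if they were among the 3 most abundant of a list or called in the comparison described. The values of 1 such gene are not reported here. For likeness, the 3 genes with the highest r at a mean log2 CPM of at least 1 were named. Alternatives were DESeq2 1.42.0, its size factors, library size alone, other filters, no fold threshold, only the groups compared, a replicate block, and leaving out each library. The related lists were refitted without IRF5 KO LPS DMSO replicate 3, a choice made after seeing the data.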

Additional observations from a re-analysis of the deposited data

Results flagged for a closer look

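For 6 values the test of the difference between genotypes itself passed the thresholds, the log2 fold change in WT minus that in IRF5 KO. For LPS these were Cd80 (1.22), Cd86 (1.55) and Cd274 (1.08). For defactinib they were Cd80 (-2.38), Cd274 (-2.82) and Icosl (-2.9). All of them use the IRF5 KO LPS DMSO libraries, of which replicate 3 stood apart, and without it Cd274 for LPS was under the fold threshold at 0.90 while the other 5 stayed called.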

How the results depend on the processing

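Of the values recomputed without leaving out a library, 499 kept their direction and their side of the thresholds, 17 newly passed, 6 no longer passed and 6 changed sign. Under library size alone the count of members higher in WT than in IRF5 KO after LPS with DMSO was 1 instead of 3, with Cd86 at 0.80 and Cd274 at 0.97. The fold threshold mattered for the genotypes under LPS with defactinib, where Cd86 (0.75) and Pdcd1lg2 (0.65) passed only without it. The share of all tested genes passing without the fold threshold was not computed. Sign changes were those of Cd83 for LPS in IRF5 KO (0.00), Icosl for LPS with defactinib in IRF5 KO (-0.09) and Cd86 for the genotype difference in the defactinib response (0.02) under library size alone, and of Pdcd1lg2 for defactinib in WT under library size alone (0.17), the 5 CPM filter (0.02) and only the groups compared (0.01). The cause was not tested. Library size alone moved the median of all tested genes by -0.38 for LPS in WT and to 0.29 for defactinib in WT, and the share of calls that were higher from 54.5% to 31.4% and from 35.9% to 49.2%.

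Leaving out 1 library gave 0 to 1 called members for defactinib in IRF5 KO, the 1 being Icosl without IRF5 KO LPS DMSO replicate 3. Values that changed sign ranged for Pdcd1lg2 from -0.33 to 0.19 (defactinib in WT), -0.5 to 0 (defactinib in IRF5 KO), -0.08 to 0.01 (genotype, unstimulated), -0.4 to 0.11 (LPS with defactinib in WT) and -0.02 to 0.53 (genotype difference in the defactinib response), for Icosl from -0.8 to 0.11 (LPS in IRF5 KO), and for Cd274 from -0.46 to 0.15 (LPS with defactinib in WT). For Cd83 they ranged from -0.39 to 0.44 (LPS in IRF5 KO), -0.51 to 0.32 (defactinib in IRF5 KO), -0.86 to 0.12 (genotype, LPS with defactinib), -0.3 to 0.68 (LPS with defactinib in WT) and -0.17 to 0.15 (LPS with defactinib in IRF5 KO).

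Same-numbered libraries showed little shared deviation from their group means (45 pairs, median r 0.005, range -0.105 to 0.278, 4 above 0.1). These correlations cannot exclude a modest effect of a shared animal or culture day, and the main fit did not pair the libraries. With the replicate block 4 instead of 3 members were called in the genotype comparison after LPS with DMSO and in both tests of the difference between genotypes, Cd83 being the one added (1.09, 1.74 and -1.42). The other counts were as without the block. Over all tested genes, a fit of only the groups compared called 153 genes instead of 2091 for LPS in IRF5 KO and 9 instead of 144 for defactinib in IRF5 KO, where DESeq2 called 523.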
